A study of Mus musculus with 21 samples.

Results

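The 34 genes described here encode the machinery of mitosis and the spindle, and were taken by symbol: cyclin-dependent kinase 1 with its cyclins, the mitotic kinases, the chromosomal passenger complex, the spindle checkpoint, the kinetochore, the spindle motors, the central spindle, and a pair of genes of dividing chromosomes. The Affymetrix mouse array had 73 probe sets annotated with 1 of these symbols, for 33 of the 34 genes, and 55 of these probe sets passed the filter on low signal. All 33 genes had at least 1 passing probe set and were among the 12446 genes tested. The cyclin Ccnb1 had no probe set with a symbol of its own in the annotation and was not analysed here.

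RNA came from cultured aortic smooth muscle cells of male C57BL/6J mice aged 10 to 12 weeks, grown in DMEM/F12 with FCS and given fresh medium 24 h before stimulation. The cells received PBS (the control), an antibody to the lymphotoxin beta receptor (anti-LTBR, 10 µg/ml), TNFalpha (1 ng/ml), or both at these doses (the combination). The 24 h samples comprise 4 arrays of each single condition (PBS, anti-LTBR, TNFalpha), which the labels number 0 to 3, and 3 arrays of the combination with the numbers 1 to 3. Each single condition also has 1 array after 2 h and 1 after 6 h, all with the number 0. Whether a number stands for an animal or a culture is not given by the labels, and the p-values reflect only how these arrays scatter. The series title names combined TNF receptor and LTBR signalling in smooth muscle cells that become lymphoid tissue organizers, and the comparisons of mitotic genes ask how the 2 stimuli bear on the transcripts of dividing cells.

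Progress through mitosis depends on proteins that are made late in the cell cycle and destroyed as cells divide, so their transcripts are high in cycling cultures and low in resting ones. CDK1 bound to a B-type cyclin starts mitosis, the checkpoint kinases hold it until every chromosome is attached to the spindle, and the anaphase promoting complex then ends it by marking securin and the cyclins for destruction. Transcription of many of these genes is held down in resting cells by the DREAM complex, which binds a promoter element called the cell cycle genes homology region (CHR), and is raised late in the cycle through the same element and the CCAAT boxes of NF-Y. Vascular smooth muscle cells are mostly quiescent in the artery wall and proliferate in serum. In a bulk culture, fewer dividing cells and less RNA per dividing cell cannot be told apart.

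The promoters of the genes carried these elements often. RefSeq promoters of GRCm38.p6, each 300 bases long with 250 before the transcription start, were listed for 28 of the 34 genes, in 29 promoters. The CHR core, searched as TTTGAA on both strands, was in 21 of 29 promoters (72.4%) and in 17.9% of all 32851 promoters of the table. The CCAAT box, searched as CCAAT on both strands, was in 22 of 29 (75.9%, against 37.4% of all promoters), and both motifs were in 18 of 29 (62.1%, against 6.95%). Matches of the CHR core and the CCAAT box can overlap by an end letter. In 18 of the 20 genes with a CHR core, a core lay within 50 bases of the start. Neither of the E2F site spellings searched, TTTGGCGC (0.514% of all promoters) and TTTCCCGC (1.07%), was in a promoter of these genes, whereas among 34 promoters of DNA replication and S phase genes TTTGGCGC was in 14.7%, TTTCCCGC in 20.6% and the CHR core in 11.8%. The CCAAT box was common in the other cell cycle lists too, with 58.8% of the S phase promoters, 59.1% of 22 G1 cyclin and CDK inhibitor promoters and 67.2% of 64 promoters of other mitosis genes. The CHR core was in 32 of the 64 promoters of other mitosis genes and in 1 of the 22 G1 promoters (4.55%). A match is a description of letters and not a measured binding site.

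Upstream stretches of 110 bases ending at the start site are printed for 4 genes with both motifs, because the genes stand for CDK1 itself, the 2 anaphase factors that turn it off, and the chromosome enzyme Top2a. Capitals mark the CHR core (TTTGAA, or TTCAAA when read from the other strand) and the CCAAT box (CCAAT or ATTGG). The stretches lie at chr10:69352913-69353022 (minus strand) for Cdk1, chr4:118437344-118437453 (minus strand) for Cdc20, chr2:164769819-164769928 (plus strand) for Ube2c and chr11:99024190-99024299 (minus strand) for Top2a, all 5′ to 3′ in the direction of the gene.
Cdk1: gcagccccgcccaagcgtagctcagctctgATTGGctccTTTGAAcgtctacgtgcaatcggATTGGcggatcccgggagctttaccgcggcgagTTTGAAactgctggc
Cdc20: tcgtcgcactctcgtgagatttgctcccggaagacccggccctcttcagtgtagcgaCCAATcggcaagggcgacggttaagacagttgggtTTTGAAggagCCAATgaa
Ube2c: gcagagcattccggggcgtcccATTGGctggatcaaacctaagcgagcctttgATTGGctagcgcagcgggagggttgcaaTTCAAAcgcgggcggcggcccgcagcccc
Top2a: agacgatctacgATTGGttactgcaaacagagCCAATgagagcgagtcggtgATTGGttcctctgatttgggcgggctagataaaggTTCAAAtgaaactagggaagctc
Each stretch carries a CHR core near its 3′ end, and 2 or 3 CCAAT boxes.

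Signals are linear scaled intensities, and differences are given on the scale log2(signal + 10.2), where 1 is a 2-fold change and changes of dim probe sets are understated. The signal of 26 of the 33 tested probe sets was above the median of its array on all 15 arrays at 24 h. The other 7 (Bub1, Bub1b, Cdc25c, Kif11, Kif23, Ndc80 and Ttk) were above it on 3 to 14 arrays. The smooth muscle actin Acta2 read 16442 to 19662 on the 21 arrays, and 8 of the 10 smooth muscle markers were above the array median on all of them. Of the 10 macrophage and leukocyte markers, 3 (Csf1r, Cd14 and Lyz2) were above it on all 21 arrays, 4 on some and 3, Ptprc among them, on none. Of 7 lymphocyte markers Cd8a was above it on all 21 and Ms4a1 on 14, and the other 5, Cd3e among them, on none. The arrays numbered 0 stood apart at 24 h: the summed signal of the endothelial list (10 genes, 9 of them tested) was 20435 to 21743 there and 2146 to 4666 at the other numbers. Much of the sum came from Emcn, at a mean of 8890 against 511.5, and Pecam1, at 5237 against 188.2. Of the 10 genes 8 averaged higher at number 0, Eng only slightly (1625 against 1550). The other 2, Kdr (223.2 against 266.1) and Cldn5 (53.1 against 72.9, above the array median on no array), averaged lower. Smooth muscle markers averaged lower at number 0 for 8 of 10 genes, with Tagln and Smtn slightly higher there. The contractile myosin Myh11 read 110.7 to 152.1 at number 0, 529.2 to 822.3 at number 1 and 1738 to 3338 at numbers 2 and 3. The summed macrophage and leukocyte list (10 genes, 7 tested) was highest at number 3, with 3532 to 4973 against 1195 to 2274 elsewhere. The combination had no array numbered 0.

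Mitotic genes differed more between the numbers than between the treatments. With treatment and number as terms, limma's F-test called 32 of the 33 genes as different between numbers (Benjamini-Hochberg adjusted p under 0.05, 97%), where 65.6% of all genes tested were called. The exception, Cdc25c, a phosphatase that activates CDK1, had an adjusted p of 0.156. Taken alone, the number accounted for a median of 76.3% of a gene's variance over the 15 arrays and the treatment, taken alone, for 12.3%, against 56.9% and 15.1% over all genes tested. Neither share is adjusted for the other, and they overlap because the combination had no array numbered 0. Levels were highest at number 0 for 30 of the 33 genes, and lowest at number 1 for 18 and at number 3 for 13. These counts were not made over all genes tested, so they are not shown to be particular to mitotic genes. Scaling the arrays to equal medians left 30 higher at number 0. Restricting the arrays to numbers 1 to 3 left 29 of the 33 genes called, and the share of all genes called in that fit is not given here.

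The proliferation marker Mki67 read 1751 in the control, 2326 with anti-LTBR and 2040 with TNFalpha on the arrays numbered 0, and between 325.5 and 1304 on the other 12 arrays at 24 h. Its ratio of number 0 to the mean of the other numbers, 2.71, was the largest among the 33 genes, for which the median was 1.85. Mki67 was singled out after its values were seen. For 19 genes every 24 h array numbered 0 lay above every other 24 h array. That count was not made over all genes tested, so it is not shown to be particular to mitotic genes. The summed endothelial marker signal was also highest at number 0. Among the other numbers it was highest at number 1 (4335.7 to 4665.8), where 18 of the 33 genes were lowest. It ran from 2146.2 to 2927.5 at number 2 and from 2158.1 to 2418.5 at number 3. The part of the endothelial signal in the mitotic levels was not tested.

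**Figure D1:**
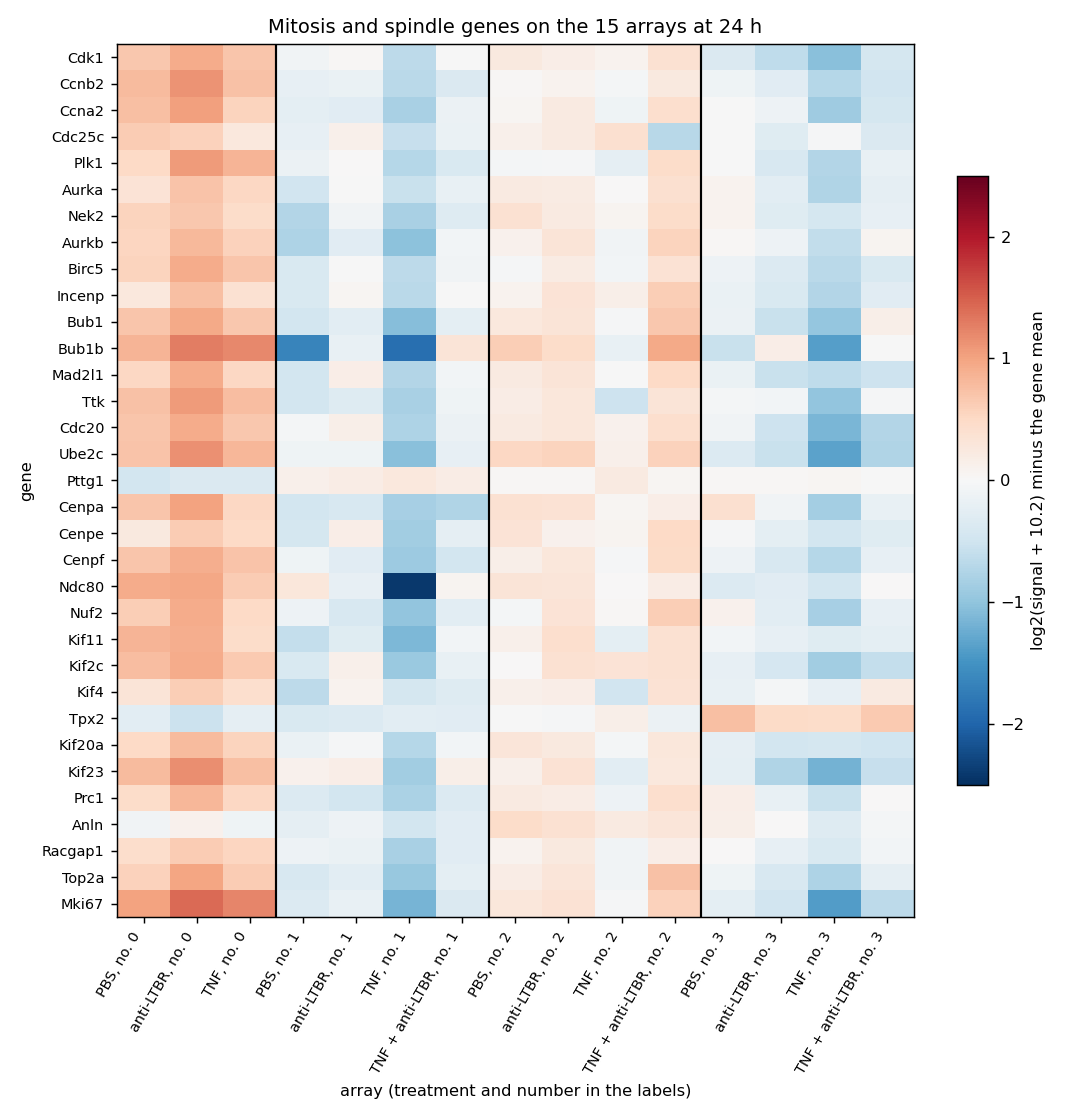
Log2(signal + 10.2) of the 33 genes on the 15 arrays at 24 h, each gene relative to its own mean (red above, blue below), with arrays ordered by the number in the labels and divided by black lines. The 3 arrays numbered 0 are high for 30 of the 33 genes, and the TNFalpha arrays numbered 1 and 3 are among the lowest. Pttg1 and Tpx2 go the other way on their tested probe sets, while another passing probe set of Tpx2 does not.

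Because arrays of 1 number deviated together over all genes, each comparison is given without the number and with the number as a block. Without the block no mitotic gene was called in any of the 6 comparisons, and none had an unadjusted p under 0.05 in limma. The shares of all genes tested that were called higher and lower were 0.129% and 0% for anti-LTBR against the control, 0.337% and 0% for TNFalpha, and 1.82% and 0.635% for the combination. They were 0.0482% and 0% for the combination against TNFalpha, 0.362% and 0% for the combination against anti-LTBR, and 0.0161% and 0% for TNFalpha against anti-LTBR. For each of the 33 genes the arrays of the groups overlapped in every comparison. Over all genes tested, 1.79% had every anti-LTBR array above and 0.988% every one below the controls, and for TNFalpha against the control the shares were 1.61% and 0.932%. They were 6.7% and 4.87% for the combination against the control, 3.15% and 1.55% against TNFalpha, and 3.69% and 1.74% against anti-LTBR. For TNFalpha against anti-LTBR they were 0.619% and 0.603%. The differences described next rest on the blocked fit and on pairs of arrays of 1 number.

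After 24 h of TNFalpha, most mitotic transcripts had lower values than in the control. The log2 difference from the control was negative for 31 of the 33 genes, with a median of -0.30 against -0.02 over all genes tested. With the block 6 genes fell and none rose (18.2% fell, while of all genes tested 2.88% fell and 3.06% rose). They were Kif23 (-0.58 ± 0.15 SE), the motor of the central spindle, Ube2c (-0.55 ± 0.14), the ubiquitin-conjugating enzyme of the anaphase promoting complex, and Cenpa (-0.54 ± 0.13), the histone H3 variant of centromeres. The others were Ccna2 (-0.45 ± 0.11), the cyclin of S phase and G2, Prc1 (-0.36 ± 0.10), which bundles the microtubules of the central spindle, and Anln (-0.24 ± 0.06), the actin-binding anillin of the cleavage furrow. Their limma adjusted p lay between 0.0292 and 0.0461. At an unadjusted p under 0.05, 20 genes were lower (60.6%, against 10.8% of all genes) and 1 was higher (3.03%, against 8.4%).

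The difference varied with the array number. The median difference of the 33 genes between TNFalpha and control was 0.03 at number 0, -0.47 at number 1, -0.23 at number 2 and -0.64 at number 3. At number 3, 32 of the 33 genes were lower with TNFalpha, and at number 0, 13 were. Lower values in all 4 pairs were found for 10 genes (30.3%, against 14.4% of all genes tested), and 1 gene, Pttg1, was higher in all 4 (3.03%, against 10.5%). With the block and only the arrays numbered 1 to 3, 12 genes fell. For this count and the leave-out counts that follow, the shares of all genes called are not given here. The counts show how far the calls depended on the arrays used and are not set against a background. The block count was 0 when the control or the TNFalpha array of number 1 or of number 3 was left out, 13 without the control array numbered 0, 11 without the TNFalpha array numbered 0 and 2 without the control array numbered 2. With all arrays of number 1 or of number 3 left out it was 0, and with those of number 2 it was 1. It was 2 (Cenpa and Kif23) after scaling the arrays to equal medians, a setting in which the calls over all genes were 345 higher and 140 lower in place of 381 and 358. The summed macrophage marker signal ran from 1291 to 3980 with TNFalpha and from 1451 to 4704 in the control, and its part was not tested.

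With anti-LTBR added to TNFalpha, mitotic transcripts had higher values than with TNFalpha alone when arrays of 1 number were compared. With the block 12 of the 33 genes rose and none fell (36.4% rose, while of all genes tested 3.46% rose and 3.31% fell), and the median difference was 0.43 against 0.02 over all genes. Of the 12, the 3 with the largest differences were spindle checkpoint genes: Bub1b (1.39 ± 0.31, limma adjusted p = 0.0160), the BubR1 kinase that restrains CDC20, Bub1 (0.82 ± 0.15, adjusted p = 0.0052), its partner at kinetochores, and Ttk (0.74 ± 0.16, adjusted p = 0.0147), the kinase that starts the checkpoint signal. Aurkb (0.70 ± 0.13, adjusted p = 0.0072), the kinase of the chromosomal passenger complex, and Top2a (0.62 ± 0.12, adjusted p = 0.0088), which disentangles DNA, had the smallest p after Bub1. At an unadjusted p under 0.05, 26 genes were higher (78.8%, against 11.5% of all genes) and 1 was lower (3.03%, against 10.1%). Ndc80, at 0.93 ± 0.38, was not called. The remaining 7 genes that rose were Kif23 (0.63), Nuf2 (0.60), a subunit of the kinetochore's NDC80 complex, Kif11 (0.57), the motor that separates spindle poles, Ccna2 (0.51), Incenp (0.49), the scaffold of the passenger complex, Prc1 (0.47) and Cdk1 (0.46).

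In the 3 pairs of arrays with 1 number the median difference between the combination and TNFalpha was 0.64 at number 1, 0.46 at number 2 and 0.45 at number 3. Higher values in each of the 3 pairs were found for 29 of the 33 genes (87.9%, against 23% of all genes tested), and Pttg1 was lower in all 3 (3.03%, against 18.4%). The 4 genes without this direction in every pair were Cdc25c, Kif20a, Tpx2 and Pttg1. Without the block the median was 0.19, since TNFalpha had an array numbered 0 and the combination had none. With only the arrays numbered 1 to 3 it was 0.49. The block count was 2 without the combination array numbered 1, 3 without that numbered 2, 4 without the TNFalpha array numbered 1 and 6 without that numbered 3. It was 6 with arrays scaled to equal medians (Aurkb, Bub1, Bub1b, Kif23, Top2a and Ttk). In that setting the calls over all genes were 241 higher and 254 lower in place of 431 and 412. The block count was 1 with all arrays numbered 1 left out, 0 with those numbered 2 and 7 with those numbered 3. For the fits that left out arrays, the shares of all genes called are not given here. Bub1 was called in all 15 fits that left out 1 array, Aurkb and Top2a in 14, and Bub1b and Ttk in 13.

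**Figure D2:**
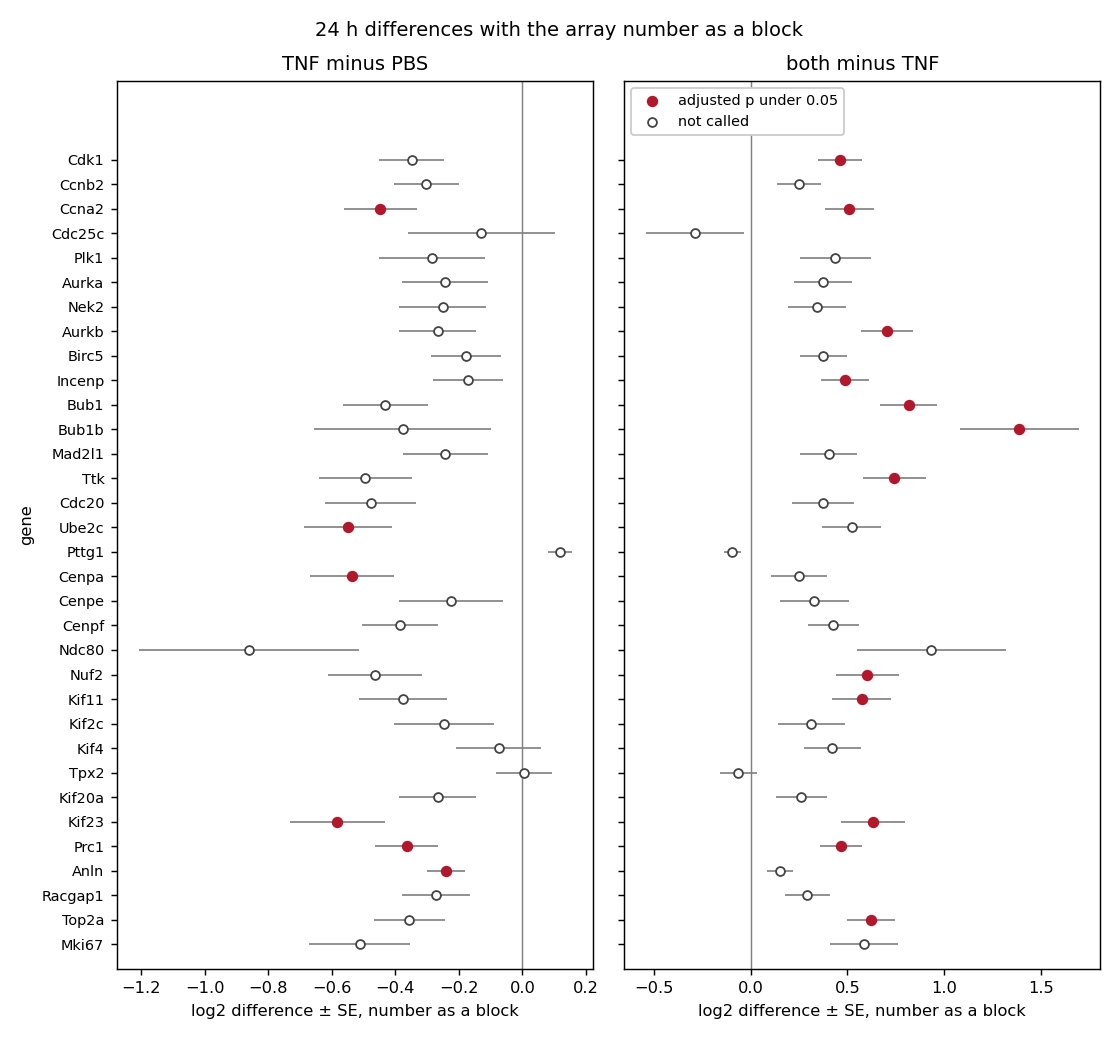
Log2 differences ± SE of the 33 genes at 24 h from the limma fit with the array number as a block, for TNFalpha minus PBS (left) and for both stimuli minus TNFalpha (right), with filled points for an adjusted p under 0.05. On the left 31 of the 33 points lie below 0 and 6 are filled. On the right 30 lie above 0 and 12 are filled.

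Against the control, few mitotic genes were called with the combination. With the block Bub1b (1.01 ± 0.31, limma adjusted p = 0.0338) and Aurkb (0.44 ± 0.13, adjusted p = 0.0345) rose and no gene fell. These 2 of 33 are 6.06%, against 9.1% of all genes tested called higher and 10.4% called lower, so the share was below the background. Bub1b, Aurkb, Bub1, Kif4 and Ttk were higher in all 3 pairs (15.2%, against 24.2% of all genes), and Cenpa and Anln were lower in all 3 (6.06%, against 25.3%). The median difference was -0.09 without the block and 0.09 with it. By number it was 0.09, 0.20 and -0.19 at numbers 1, 2 and 3. Without the control array numbered 0 or 1, or the combination array numbered 1 or 2, the block count was 0, without the control array numbered 2 it was 1, and without that numbered 3 it was 6. What share of all genes was called in these fits is not given here. This comparison and that of TNFalpha with the control share the 4 control arrays, and the combination and TNFalpha comparisons share the TNFalpha arrays.

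No mitotic gene was called with anti-LTBR alone, with or without the block (0 of 33, against 2.55% of all genes called higher and 2.21% called lower with the block). At an unadjusted p under 0.05 in the blocked fit, 2 were higher (Bub1b and Kif4; 6.06%, against 8.89% of all genes), and without the control array numbered 3 1 gene, Incenp, was called. Scaling to equal medians moved the calls over all genes in that fit from 317 higher and 275 lower to 411 and 61. Kif4 and Pttg1 were higher in all 4 pairs (6.06%, against 12.1% of all genes), and no gene was lower in all 4 (against 14.6%). The difference from the control was positive for 28 of the 33 genes, with a median of 0.06. By number the median went from 0.31 at number 0 through 0.14 and 0.05 at numbers 1 and 2 to -0.22 at number 3, where 29 genes were lower.

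TNFalpha against anti-LTBR gave a median of -0.41 over the 33 genes. Lower values with TNFalpha in all 4 pairs were found for 29 genes (87.9%, against 11.4% of all genes tested), and higher values in all 4 for none (against 9.27%). In the blocked fit 29 genes were lower at an unadjusted p under 0.05 (87.9%, against 6.37% of all genes) and none passed the adjusted threshold (0 of 33, against 0.378% of all genes called lower and 0.354% higher). The smallest adjusted p was 0.0562, for Ccna2. Scaling the arrays to equal medians with the block gave 3 calls, all lower, with 33 higher and 61 lower over all genes in place of 44 and 47. Leaving out the control array numbered 3 gave 10, that numbered 0 gave 4 and the TNFalpha array numbered 0 gave 5. For these leave-out fits the share of all genes called is not given here. Against anti-LTBR the combination had a blocked median of 0.02, and no gene was called (2.78% of all genes were called higher and 2.85% lower, or 346 and 355 genes, which scaling turned into 199 and 347). In every pair 6 genes were higher (18.2%, against 19.9% of all genes) and 4 were lower (12.1%, against 19.6%). In the blocked fit 1 gene, Bub1, was higher at an unadjusted p under 0.05 (3.03%, against 9.14% of all genes).

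**Figure D3:**
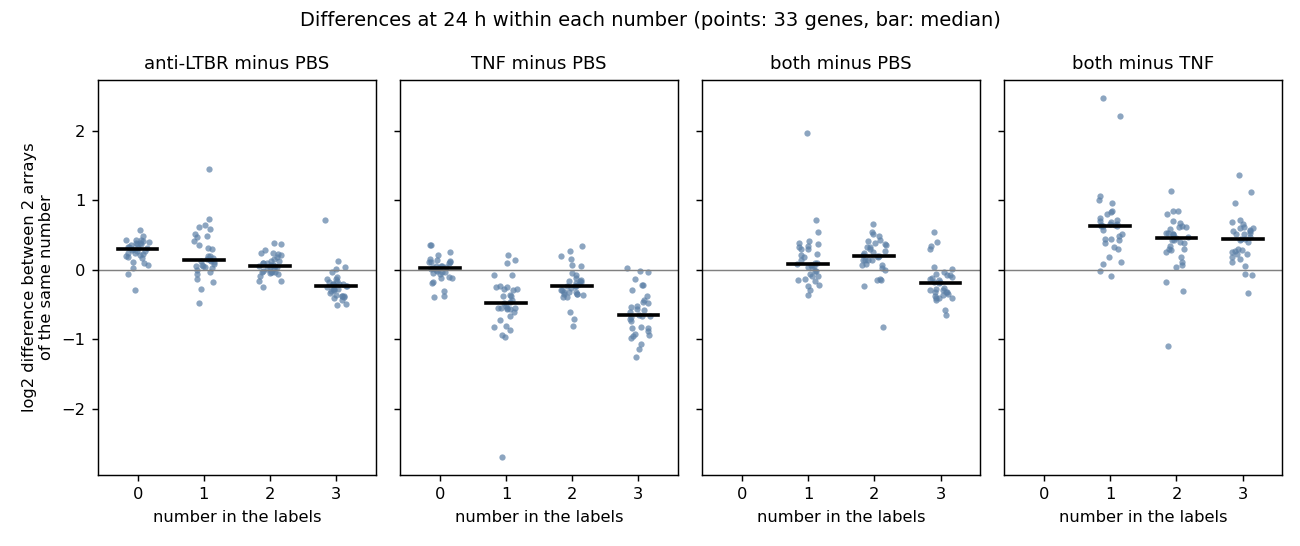
Log2 differences at 24 h between 2 arrays of the same number, 1 point per gene (33 genes) and a bar at the median, for 4 comparisons, with the number on the horizontal axis. For both stimuli minus TNFalpha the 3 medians lie at 0.64, 0.46 and 0.45, and for TNFalpha minus PBS they run from 0.03 at number 0 to -0.64 at number 3.

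Within the group of CDK1 and its activators, Cdk1, the kinase that drives entry into mitosis, read 1901, 1109, 1408 and 922.9 in the controls numbered 0 to 3. With anti-LTBR it read 2261, 1216, 1331 and 758.1, with TNFalpha 1908, 751.6, 1254 and 572.0, and with the combination 1170, 1550 and 873.9 at numbers 1 to 3. The groups overlapped, the number 0 array was the highest of each group that had one, and at numbers 1 to 3 the TNFalpha array was the lowest of its number. The blocked difference of Cdk1 between TNFalpha and control was -0.35 ± 0.10 (limma adjusted p = 0.0606), and its rise in the combination over TNFalpha was called in 10 of 15 fits that left out 1 array. Ccnb2, the B-type cyclin partner of CDK1, was lower with TNFalpha in all 4 pairs, but its blocked difference of -0.30 ± 0.10 was not called (adjusted p = 0.110).

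Cdc25c had the smallest p among the 33 genes for the combination against the control, at -0.55 ± 0.30 without the block (limma adjusted p = 0.547). It read 140.3, 73.5, 94.7 and 85.9 in the controls and 76.1, 49.2 and 64.3 with the combination. With anti-LTBR it read 134.0, 94.3, 102.1 and 68.2, and with TNFalpha 105.4, 54.0, 116.6 and 84.0. The groups overlapped, and the probe set was above the array median on 3 of 15 arrays.

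None of the 3 mitotic kinases Aurka, Plk1 and Nek2 was called in a treatment comparison. Aurka, which matures the centrosomes and spindle poles, read 483.1, 265.7, 442.9 and 400.1 in the controls and 540.7, 251.3, 377.1 and 220.4 with TNFalpha. It read 624.1, 373.4, 434.0 and 309.9 with anti-LTBR and 331.4, 503.2 and 318.9 with the combination. The TNFalpha array was the lowest of its number at numbers 1 to 3, while at number 0 it lay between the other arrays. For the combination against TNFalpha the blocked differences were 0.37 for Aurka, 0.44 for Plk1, the polo kinase of mitotic entry and exit, and 0.34 for Nek2, a centrosome kinase.

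The chromosomal passenger complex corrects faulty attachments of chromosomes to the spindle, and 2 of its 3 genes rose in the combination over TNFalpha. Incenp read 1153, 737.2, 1023 and 854.4 in the controls and 1615, 991.6, 1219 and 737.9 with anti-LTBR. It read 1249, 602.3, 1059 and 576.6 with TNFalpha and 953.1, 1473 and 790.4 with the combination. The groups overlapped, with anti-LTBR above the control at numbers 0 to 2 and below it at number 3. Incenp was among the 3 genes of smallest p for anti-LTBR against the control, at 0.24 ± 0.29 without the block and 0.24 ± 0.11 with it (limma adjusted p = 0.268 with the block). Birc5, the survivin subunit, was higher with the combination than with TNFalpha in all 3 pairs, with a blocked difference of 0.37 that was not called (adjusted p = 0.0842).

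Of the 4 spindle checkpoint genes, 3 rose in the combination over TNFalpha. Mad2l1, whose protein forms the inhibitor of anaphase with BubR1, was not called and read 1178, 596.6, 964.2 and 728.9 in the controls and 1184, 490.7, 816.3 and 526.0 with TNFalpha. It read 1586, 920.2, 1033 and 558.6 with anti-LTBR and 782.7, 1169 and 572.5 with the combination. The groups overlapped, and the blocked difference of 0.40 between the combination and TNFalpha was not called (limma adjusted p = 0.125).

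Bub1b read 308.3, 46.5, 261.6 and 110.9 in the controls and 421.2, 145.7, 233.4 and 189.2 with anti-LTBR. With TNFalpha it read 399.0, 38.0, 145.5 and 57.9, and with the combination 213.0, 331.7 and 166.1. The combination was above the control and above TNFalpha at each of the numbers 1 to 3, while the TNFalpha array numbered 0 exceeded all combination arrays. At number 1 the control and TNFalpha arrays were the lowest of the 15, and the probe set was above the array median on 11 arrays. Another passing probe set of Bub1b differed between TNFalpha and control in the opposite direction (0.30 against -0.38 in the blocked fit), and between the combination and TNFalpha in the same direction (0.66 against 1.39).

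Bub1, whose array values are given because of its small p and were chosen after they were seen, read 418.9, 181.1, 305.8 and 226.8 in the controls and 411.5, 116.1, 249.5 and 124.4 with TNFalpha. With the combination it read 214.1, 412.7 and 281.6, and with anti-LTBR 497.7, 210.4, 321.0 and 169.6. At each of the numbers 1 to 3 the combination array was above both the control and the TNFalpha array of its number, and the TNFalpha array was the lowest. Over the 15 fits that left out 1 array its blocked difference between the combination and TNFalpha ran from 0.72 to 0.90.

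Among the 3 anaphase genes, Pttg1, the securin that holds separase inactive, went against the rest. It read 3931, 5899, 5525 and 5502 in the controls, 4222, 6139, 5551 and 5531 with anti-LTBR, 4192, 6540, 6356 and 5603 with TNFalpha and 6130, 5627 and 5405 with the combination. The number 0 arrays were the lowest of their groups, and TNFalpha was above the control at every number. The blocked difference between TNFalpha and control was 0.12 ± 0.04 (limma adjusted p = 0.0911). Of the 3 passing probe sets of Pttg1, the tested one and another differed by 0.12 and 0.13, and the third by -0.41. Pttg1 was also among the 3 genes of smallest p for the combination against the control, at 0.15 ± 0.17 without the block (adjusted p = 0.864) and 0.02 with it. Cdc20, the activator of the anaphase promoting complex, was lower with TNFalpha in all 4 pairs, with a blocked difference of -0.48 ± 0.14 that was not called (adjusted p = 0.0725).

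At the centromere and kinetochore, Cenpa fell with TNFalpha. It read 1050, 465.8, 845.9 and 851.5 in the controls and 930.4, 355.9, 663.2 and 352.3 with TNFalpha. With anti-LTBR it read 1307, 487.8, 835.7 and 602.1, and with the combination 378.9, 720.9 and 564.8. TNFalpha was below the control at every number, most at number 3, and the combination stayed below the control at numbers 1 to 3. For the combination against the control the blocked difference was -0.29 ± 0.15 (limma adjusted p = 0.200), and against TNFalpha it was 0.25 ± 0.15 (adjusted p = 0.358), so Cenpa was not among the genes that rose over TNFalpha.

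Ndc80, which couples kinetochores to microtubules, had the smallest unblocked p for TNFalpha against the control. It read 230.8, 142.9, 147.2 and 89.7 in the controls, 185.0, 13.5, 116.3 and 81.1 with TNFalpha, 235.2, 99.3, 144.1 and 93.0 with anti-LTBR and 122.0, 133.3 and 116.0 with the combination. A single array, TNFalpha numbered 1, stood far below the rest. The blocked difference of -0.86 ± 0.35 (limma adjusted p = 0.185) ran from -1.06 to -0.32 over the fits that left out 1 array. Cenpf, a kinetochore protein of late G2, differed between TNFalpha and control by -0.39 ± 0.12 (adjusted p = 0.0778) on its tested probe set and by -0.04 on its other passing one.

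Among the spindle motors and assembly factors, Kif11 rose in the combination over TNFalpha, and its call remained in 7 of 15 fits that left out 1 array. Kif4, a chromosome-bound motor, had the smallest p for anti-LTBR against the control. It read 446.3, 222.9, 388.6 and 311.3 in the controls and 553.8, 377.0, 403.2 and 342.1 with anti-LTBR. With TNFalpha it read 481.4, 261.4, 252.2 and 306.5, and with the combination 284.2, 461.3 and 415.0. Anti-LTBR was above the control at every number, while the groups overlapped, and the difference of 0.31 ± 0.25 (0.31 ± 0.13 with the block, limma adjusted p = 0.231) was not called.

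Tpx2, which activates Aurora A on the spindle, has 4 passing probe sets that disagree. The tested one read 408.9, 376.3, 489.1 and 829.6 in the controls, 334.0, 386.7, 480.0 and 686.5 with anti-LTBR, 418.9, 405.8, 548.2 and 678.9 with TNFalpha and 402.9, 443.3 and 775.2 with the combination. It was highest at number 3 in every group, and its blocked difference between TNFalpha and control was 0.00 ± 0.09. Another passing probe set read 627.2, 652.9 and 662.1 on the control, anti-LTBR and TNFalpha arrays numbered 0 at 24 h. On the other 24 h arrays that probe set read at most 566.8. A pair of the other probe sets differed by -0.36 and -0.27 between TNFalpha and control and by 0.42 and 0.49 between the combination and TNFalpha. Over the 16 genes with several passing probe sets, all sets had 1 sign in 13 genes for each of these 2 comparisons. Signs were counted whatever the size of the difference.

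The central spindle and cytokinesis genes held 3 of the 6 that fell with TNFalpha. Anln read 2463, 2228, 3568 and 2881 in the controls and 2421, 1884, 3052 and 2074 with TNFalpha. With anti-LTBR it read 2795, 2375, 3410 and 2635, and with the combination 2143, 3220 and 2528. TNFalpha was the lowest array of each number, by a small margin at number 0, and unlike most of the genes Anln was highest at number 2.

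Kif23 read 490.9, 302.5, 305.2 and 233.4 in the controls and 476.9, 149.2, 230.3 and 118.0 with TNFalpha. With anti-LTBR it read 637.6, 314.1, 359.8 and 160.9, and with the combination 310.4, 336.7 and 185.1. TNFalpha was the lowest array at every number. Kif23, Ccna2 and Prc1 were called in both comparisons, falling with TNFalpha and rising in the combination over TNFalpha, and both comparisons use the TNFalpha arrays. The call of Prc1 for TNFalpha remained in 3 of 15 fits that left out 1 array. Racgap1 and Kif20a, the other 2 genes of the group, differed by -0.27 each between TNFalpha and control and were not called.

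Top2a read 1869, 945.4, 1407 and 1157 in the controls and 1935, 641.9, 1177 and 726.4 with TNFalpha. It read 2487, 1040, 1540 and 940.0 with anti-LTBR and 1042, 2061 and 1058 with the combination. At numbers 1 to 3 TNFalpha was the lowest array, and the combination array numbered 2 exceeded the TNFalpha array numbered 0. Another passing probe set of Top2a did not share the rise over TNFalpha (0.006 against 0.62 on the tested one, blocked fit). On that probe set TNFalpha differed from the control by -0.12 (-0.36 on the tested one) and the combination by -0.11 (0.27). Mki67 differed between TNFalpha and control by -0.51 ± 0.16 and between the combination and TNFalpha by 0.58 ± 0.18 in the blocked fit, and neither was called (limma adjusted p = 0.0799 and 0.0646).

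At 2 h and 6 h there was 1 array per condition, so the values have no replicate check. At 2 h TNFalpha was below the control for 31 of the 33 genes, with a median difference of -0.19 (-0.03 over all genes tested). At 6 h TNFalpha was below it for 26, with a median of -0.12 (0.007 over all genes). At 2 h 1 gene was lower by at least 1.5-fold (3.03%, against 3.05% of all genes), Ndc80 with 93.6 against 178.9, and at 6 h 1 was higher (3.03%, against 7.06%), the dim Cdc25c. Anti-LTBR, set against the same control arrays, was below them for 22 genes at 2 h and for 21 at 6 h. With anti-LTBR the medians were -0.04 at 2 h and -0.07 at 6 h, and no gene passed 1.5-fold (background 2.9% higher and 2.03% lower at 2 h, 4.03% and 1.78% at 6 h). Cdk1 read 2206, 2049 and 1917 in the control, anti-LTBR and TNFalpha arrays at 2 h, and 2088, 1859 and 1776 at 6 h. The order was the same at both times, and the gaps had closed or turned by 24 h at number 0, where the values were 1901, 2261 and 1908. Over the 9 arrays numbered 0 a gene's highest signal was 1.13 to 2.51 times its lowest, with a median of 1.37. For 17 genes all 9 lay above all 12 other arrays. This count, too, was not made over all genes tested and is not shown to be particular to mitotic genes.

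**Figure D4:**
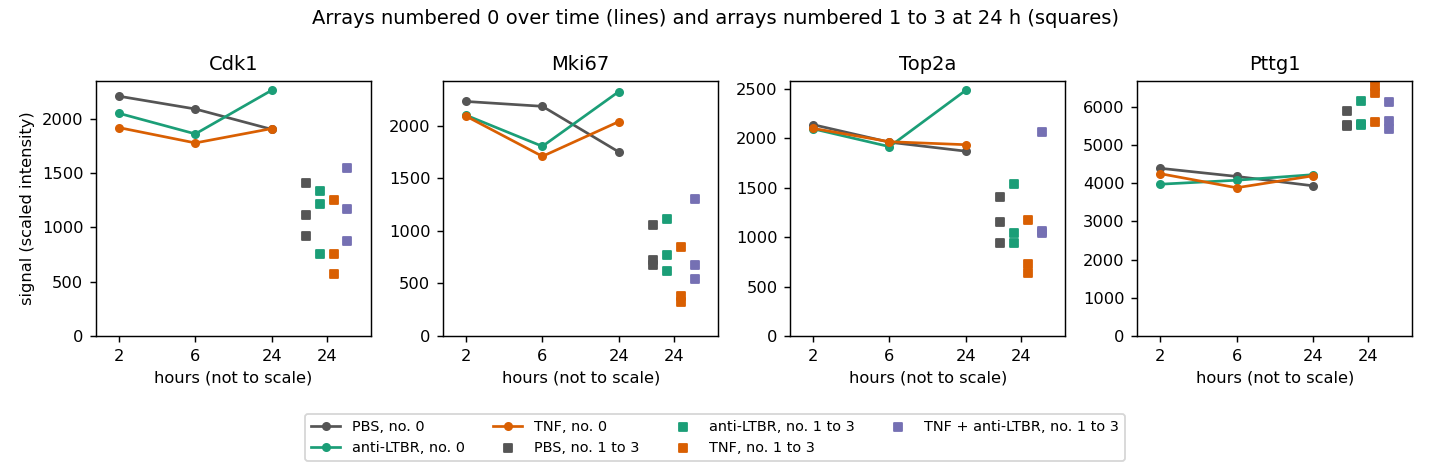
Signal of Cdk1, Mki67, Top2a and Pttg1 on the arrays numbered 0 at 2, 6 and 24 h (lines, 1 array per point) and on the arrays numbered 1 to 3 at 24 h (squares, 1 per array), on axes from 0. Cdk1 and Mki67 lie above every other 24 h array at all 3 times, Top2a overlaps with 1 combination array, and Pttg1 lies below.

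Other genes of the cell cycle were read in the same fits. Of 61 other mitosis genes 57 were tested. None was called without the block, and with the block 15 rose (26.3%, against 3.46% of all genes) and none fell in the combination over TNFalpha, led by the motor Kif22 (0.66), the passenger subunit Cdca8 (0.56) and the CDK subunit Cks2 (0.34). With TNFalpha 4 fell (7.02%, against 2.88%) and 1 rose (1.75%, against 3.06%) against the control, led by Cdc25b (-0.49), a CDK phosphatase, Spc25 (-0.49), a kinetochore subunit, and Hmmr (-0.58), a spindle protein. Against the control 4 rose with the combination (7.02%, below the 9.1% of all genes), led by Gtse1 (0.57), a microtubule tip protein. Of 15 condensin and cohesin genes 4 rose over TNFalpha (26.7%, against 3.46%), led by the condensin ATPase Smc2 (0.63), which was also the only one of the 15 that fell with TNFalpha (-0.32; 6.67%, against 2.88%). Between TNFalpha and anti-LTBR 1 of the 15 was lower with TNFalpha (6.67%, against 0.378%). Of the 12 core subunits of the anaphase promoting complex none was called in the combination over TNFalpha, and 3 of 12 fell against the control (against 10.4% of all genes), led by Anapc11 (-0.28), which also fell with TNFalpha (-0.23; 1 of 12, 8.33%, against 2.88%).

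DNA replication and S phase genes, 33 of 36 tested, had no call without the block. With the block 13 rose in the combination over TNFalpha (39.4%, against 3.46% of all genes), led by the helicase subunits Mcm7 (0.64) and Mcm3 (0.77) and by Uhrf1 (1.03), which maintains DNA methylation at replication. Against the control 10 rose (30.3%, against 9.1%) and 1 fell (3.03%, against 10.4%) in the combination, again led by Mcm7 (0.60), Uhrf1 (0.76) and Mcm3 (0.54). With TNFalpha Mcm4, Ccne2 and Dut fell against the control (9.09%, against 2.88%). With anti-LTBR 2 rose (6.06%, against 2.55%), Mcm7 (0.46) and the clamp Pcna (0.22). Between TNFalpha and anti-LTBR 5 of the 33 were lower with TNFalpha (15.2%, against 0.378% of all genes) and none was higher (against 0.354%). Of 20 tested G1 cyclins, CDKs and CDK inhibitors, 4 rose with anti-LTBR (20%, against 2.55%) and 3 with TNFalpha (15%, against 3.06%), and none fell. With the combination 5 rose (25%, against 9.1%) and 4 fell (20%, against 10.4%) relative to the control. Over TNFalpha 4 rose (20%, against 3.46%) and 2 fell (10%, against 3.31%). Ccnd1, the cyclin that responds to growth factors, was 1 of those that rose with anti-LTBR (0.25), with TNFalpha (0.14) and with the combination (0.40). Among 22 tested regulators of mitotic transcription, 2 rose (9.09%, against 3.46%) and 1 fell (4.55%, against 3.31%) in the combination against TNFalpha. Against the control 1 rose (4.55%, against 9.1%) and 1 fell (4.55%, against 10.4%). The gene that fell was the retinoblastoma gene Rb1 in each comparison (-0.26 and -0.26). None was called with TNFalpha or anti-LTBR alone.

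Some smooth muscle markers fell in the same comparisons. With the block 5 of 10 fell with TNFalpha (against 2.88% of all genes) and 5 with the combination (against 10.4%) relative to the control, and 2 fell in the combination against TNFalpha (against 3.31%). Of the adventitial fibroblast markers 5 were tested, and Pdgfra (0.58) and Cd34 (0.19) rose in the combination against TNFalpha (2 of 5, against 3.46% of all genes). Relative to the control, 1 of the 5 fell with TNFalpha (20%, against 2.88%) and 2 rose with the combination (40%, against 9.1%). No endothelial (9 tested), macrophage (7 tested) or lymphocyte (2 tested) marker was called in these 3 comparisons. The part of these shifts in the mitotic differences was not tested.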

How the data were processed

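RNA of mouse aortic smooth muscle cultures was hybridised to 21 Affymetrix arrays of 45101 probe sets, 15 of them at 24 h. The deposited values are linear signal intensities that the authors made with GCOS 1.4, per the submitters' processing notes; how probes were summarized and corrected for background is not given in the sources used here. Every array has a trimmed mean of 500.0 (2% removed at each end), and medians run from 106.8 to 139. The number of arrays limits the precision.

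Signals were used as log2(signal + 10.2), 10.2 being the 10th percentile of the 24 h values. Probe sets had to exceed their array's median on at least 3 of the 15 arrays, and the one with the highest mean stood for its gene. Of the probe sets 34945 carry 1 symbol, 932 several and 9160 none. The 12446 genes were fitted with limma 3.58.1 in R 4.3.3 on all 15 arrays with a variance trend (11 residual degrees of freedom, 8 with the number as a block), and a call is a two-sided Benjamini-Hochberg adjusted p under 0.05 over all genes of a comparison. For 2 h and 6 h only differences were taken.

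The numbers in the labels pair the arrays: with group means removed, correlations were 0.46 to 0.81 (median 0.63) for 21 array pairs sharing a number and -0.58 to 0.22 (median -0.23) for 63 pairs with different ones, and 15 of 15 arrays correlated best with one of their own number. In data simulated for TNFalpha against control over 12446 genes, the fit recovered 25% of changes of log2 0.5 and 68% of log2 1, and 66% and 91% with the block, with 0 and 6 false calls. The simulation used normal noise independent between genes and a change equal at every number, so the block model was right by construction. In the data the TNFalpha difference varied with the number, so these rates need not hold there.

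Array values are given for the gene of each functional group with the highest mean, and for the 3 genes of smallest p in each treatment against the control; other genes by range, count or blocked value. From other lists at most 3 called genes per comparison are named. The genes, lists and tests were chosen with earlier results of these data known, and a gene list has no test of its own. Alternatives were the pseudocount, the filter, scaling to equal medians, the mean of all probe sets, no variance trend, the block, arrays numbered 1 to 3 only, and leaving out each array; fits with the block that leave out all arrays of a number, or keep numbers 1 to 3, were added after seeing the data. Promoters are RefSeq's (GRCm38.p6).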

Additional observations from a re-analysis of the deposited data

How the results depend on the processing

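Without the block, no mitotic gene was called under a pseudocount of 1 or 50, no filter, no variance trend, the mean of all passing probe sets, equal medians, arrays numbered 1 to 3 only, or with any 1 array left out. The number of genes called with the replicate block was 6 for TNFalpha against control, 12 for the combination against TNFalpha and 2 for the combination against control. With the block and equal medians it was 2, 6 and 2, with 3 for TNFalpha against anti-LTBR. With the block and numbers 1 to 3 only it was 12, 12 and 1, with 2 for TNFalpha against anti-LTBR. With the block and all arrays of number 1 left out, 1 gene was called for the combination against TNFalpha. Without number 2, 1 was called for TNFalpha against control and 1 for the combination against control, and without number 3 the count was 7 for the combination against TNFalpha and 4 against the control. Shares of all genes called in the fits that left out arrays are not given here.

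The median difference between the combination and TNFalpha was 0.19 without the block, 0.43 with it, 0.39 with the block and equal medians, 0.49 over numbers 1 to 3 with or without the block, and 0.37, 0.37 and 0.42 with the block and without number 1, 2 or 3. The combination against anti-LTBR was -0.17 without the block, 0.016 with it, -0.0499 with equal medians as well, 0.027 over numbers 1 to 3 with or without the block, and 0.071, -0.033 and 0.025 without number 1, 2 or 3. The combination against control was 0.25 with the block and without number 3. The cause of these moves was not tested, except that the fit without the block sets a group with no array numbered 0 against groups that have one.

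Over fits that left out 1 array, with and without the block, calls ran from 0 to 13 (TNFalpha against control), 0 to 16 (combination against TNFalpha), 0 to 6 (combination against control), 0 to 10 (TNFalpha against anti-LTBR) and 0 to 1 (anti-LTBR against control), and were 0 for the combination against anti-LTBR. In the same order the medians ran from -0.61 to -0.12, 0.0044 to 0.49, -0.31 to 0.23, -0.68 to -0.20, -0.15 to 0.25 and, last, -0.39 to 0.11. Signs with 1 array left out were followed for 27 differences of named genes, not for all 33 genes: with the block none turned, and without it 2 did. Aurkb in the combination against control was -0.042 without the control array numbered 1 (0.58 at most, with the block), and Cdk1 in the combination against TNFalpha was -0.061 without the TNFalpha array numbered 3 (0.54 at most, with the block). Over all genes, scaling to equal medians moved the calls without the block from 306 to 181 for the combination against control, from 45 to 24 against anti-LTBR and from 6 to 0 against TNFalpha, and from 16 to 7 for anti-LTBR and 2 to 0 for TNFalpha against anti-LTBR; the block raised them to 2422, 701, 843, 592 and 91, and from 42 to 739 for TNFalpha against control. Groups of 3 or 4 arrays and dim probe sets such as those of Cdc25c and Ndc80 limit what could be called.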
